A study of Mus musculus with 20 samples.

Results

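The genes of the T cell receptor machinery were followed in epididymal white adipose tissue (eWAT) of mice: Cd3e, Cd3g, Cd3d, Cd4, Cd8a, Lck, Zap70, Cd2 and Cd5. They were taken by name from the deposited expression table, and 9 of 9 were present among its 14776 genes. The table holds FPKM, fragments scaled to exon length and to a size of each library, for 20 male C57BL/6J mice. The NC group (6 mice) received a maintenance feed. The HFD group (7 mice) received a high-fat diet, which induces obesity, and saline by gavage. The SZ-A group (7 mice) received the same high-fat diet and, by gavage, Ramulus Mori (Sangzhi) alkaloids, an extract of mulberry twig. Feeding began at 6 weeks of age, and gavage filled the last 6 weeks after 14 weeks of diet. SZ-A was given only on the high-fat diet, so no group shows its effect on the maintenance feed. Whole tissue was sequenced, so the cells that carried each transcript were not separated.

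The T cell receptor itself is a pair of antigen-binding chains that cannot signal alone and depends on the CD3 subunits, whose cytoplasmic motifs are phosphorylated by the kinase Lck once a coreceptor, CD4 or CD8, brings it to the receptor. The kinase Zap70 then docks on the phosphorylated motifs and passes the signal to adaptor proteins. Cd2 and Cd5 are not part of the complex itself but surface proteins of the same cells, the first an adhesion and costimulatory receptor, the second a brake on receptor signalling. Cd2, Lck and Zap70 also serve in natural killer cells, Cd5 marks a subset of B cells, and Cd4 is carried by some dendritic cells. In obese adipose tissue T cells are known to accumulate beside a far larger macrophage population.

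These genes were weakly expressed. Reads on the table's genes, recovered from FPKM and exon length, ran from 13567667 to 19388628 per mouse, yet the 9 genes together held 185 to 760 reads in a mouse, with a median of 348. Over the 180 values of 9 genes in 20 mice the median was 30 reads, 138 values were under 50 reads and 12, in 5 genes, were under 10. The lowest was 1 read, for Cd4 in NC replicate 6, which has an exact 95% Poisson interval of 0.0253 to 5.57 reads. Such intervals cover counting error only. Ordered by mean FPKM over all mice, the genes were Cd3e (0.341), Cd4 (0.428), Cd5 (0.596), Cd3g (0.602), Cd8a (0.622), Cd3d (0.707), Lck (1.13), Zap70 (1.38) and Cd2 (1.82). The median gene of the table had a mean of 5.32, and from 4.78% (Cd3e) to 24.9% (Cd2) of genes lay below a member. Neighbours in this order from Cd4 to Cd3d differed by less than the SD between mice of any group, and Zap70 owes its place to a single mouse, since its median was 0.555.

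NC replicate 6 stood apart before any comparison was made. Its mean correlation with the other mice was 0.726, against 0.849 to 0.931 for the rest. Adiponectin (Adipoq), a defining adipocyte gene, was at 26.6 FPKM there and at 859 to 2278 in the other NC mice, and the summed level of 10 adipocyte genes was 414 against 8880 to 21087 FPKM. Mfge8 was at 2242 FPKM, against 71.4 to 457 in all other mice. Among the T cell genes the same mouse had the highest Zap70 (14.5 FPKM, 633 reads) and the lowest Cd4 (0.0170 FPKM), Cd3g (0.0840 FPKM) and Cd8a (0.113 FPKM). The calls in comparisons that include NC are therefore given with and without it. HFD replicate 1 had the lowest Adipoq of the other mice, 222 FPKM, and also the highest Ptprc of all, 22.4 FPKM. Macrophage genes moved with the groups: the summed level of 14 markers was 89.8 to 877 FPKM in the NC mice, 3597 to 9445 in the HFD mice and 1450 to 4839 in the SZ-A mice. Whether the cell makeup of the tissue had a part in the values below was not tested. In bulk tissue, fewer T cells and less RNA per T cell cannot be told apart.

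**Figure D1:**
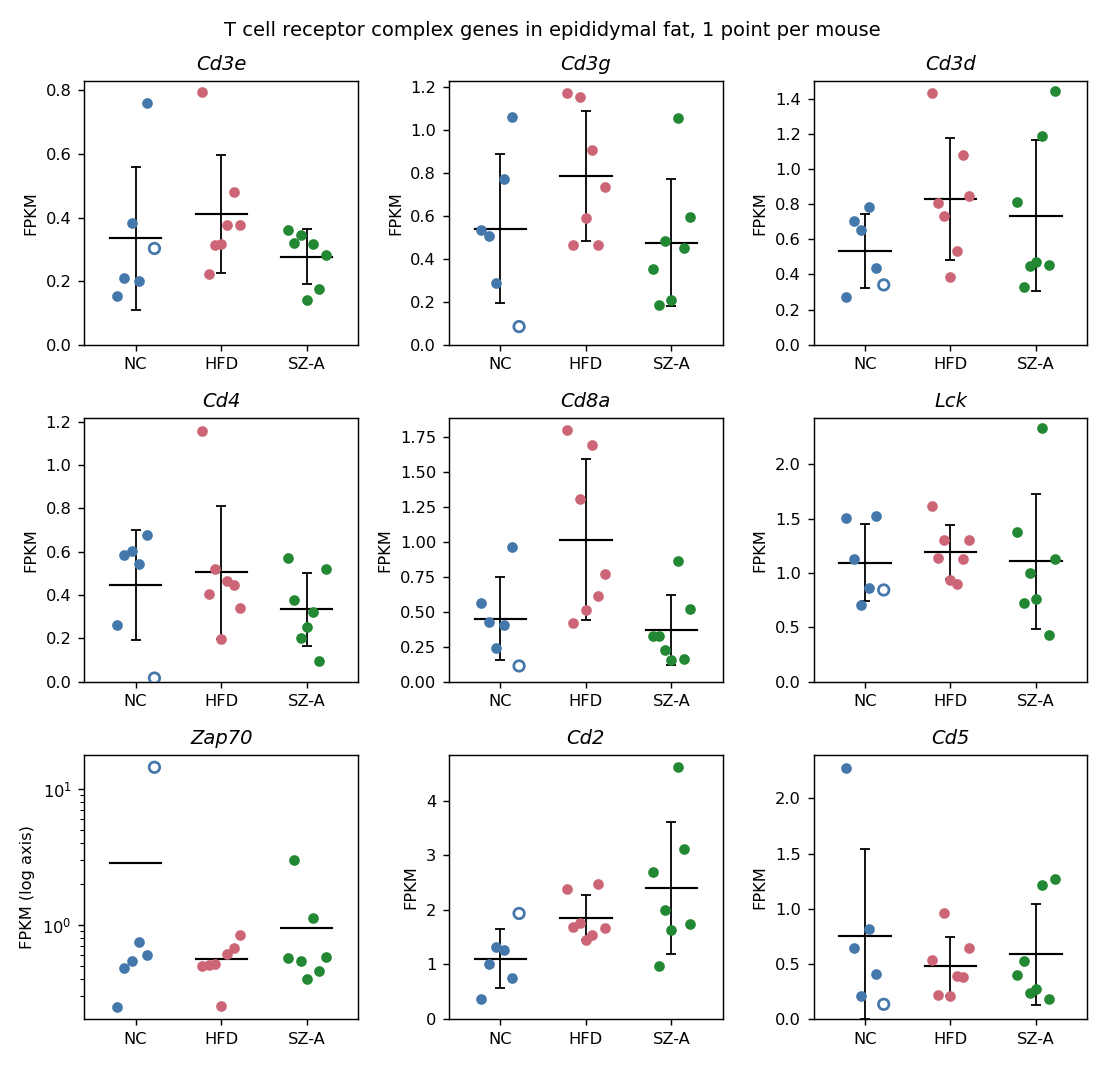
FPKM (vertical axis; logarithmic for Zap70) of the 9 genes by group (NC, HFD, SZ-A), 1 point per mouse, with the group mean as a line and the SD as an error bar cut at 0 (omitted for Zap70). The open circle is NC replicate 6. The groups overlap for every gene, Cd8a is highest in HFD mice, and the Zap70 mean of NC is carried by the mouse at 14.5.

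The 3 CD3 genes lie side by side on chromosome 9 (GRCm38): Cd3g at 44969572-44980431 on the minus strand, Cd3d at 44981786-44987339 on the plus strand and Cd3e at 44998740-45009627 on the minus strand. They span 40056 bases, and Cd3g and Cd3d are read away from each other from starts 1355 bases apart. Cd8a lies on chromosome 6, at 71373427-71379173 on the plus strand, 35933 bases from Cd8b1. The 250 bases before the RefSeq start (GRCm38.p6) are shown for the neighbours Cd3g and Cd3d, and for Cd8a because its level followed that of Cd3g most closely among the 9 genes. They were searched on both strands for CAGNTG, an E-protein motif, and TGTGGT, a Runx motif, families with known roles in T cell genes. Capitals mark matches to CAGNTG, of which Cd3g holds 2, Cd3d holds 1 and Cd8a holds 0. No window holds TGTGGT. Of 32851 starts in the table, 44.8% hold CAGNTG and 14.0% hold TGTGGT in this window, and a match describes the sequence only.
Cd3g, chr9:44980432-44980681, minus strand: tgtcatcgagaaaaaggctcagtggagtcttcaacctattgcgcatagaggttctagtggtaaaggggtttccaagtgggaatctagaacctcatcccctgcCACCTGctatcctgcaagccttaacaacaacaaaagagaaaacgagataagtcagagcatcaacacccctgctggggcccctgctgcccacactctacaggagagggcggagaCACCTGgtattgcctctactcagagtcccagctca
Cd3d, chr9:44981536-44981785, plus strand: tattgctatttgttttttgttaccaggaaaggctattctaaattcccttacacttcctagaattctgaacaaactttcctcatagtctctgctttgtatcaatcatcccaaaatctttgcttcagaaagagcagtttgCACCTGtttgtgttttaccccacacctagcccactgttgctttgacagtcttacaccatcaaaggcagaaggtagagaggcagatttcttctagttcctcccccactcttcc
Cd8a, chr6:71373177-71373426, plus strand: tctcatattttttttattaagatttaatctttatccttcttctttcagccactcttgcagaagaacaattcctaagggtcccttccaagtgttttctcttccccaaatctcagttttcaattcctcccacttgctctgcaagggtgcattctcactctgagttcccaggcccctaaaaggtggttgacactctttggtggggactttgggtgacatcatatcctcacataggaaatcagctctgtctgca

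In the comparison of HFD with NC, which asks what the obesogenic diet changed, Cd2 rose and the other 8 genes did not pass the test. The HFD mice also received saline by gavage, which the sources do not state for NC, so diet and gavage cannot be told apart here or in SZ-A against NC. The test was limma on log2(FPKM + 1), and a gene was called at a Benjamini-Hochberg adjusted p under 0.05 over all 14706 genes tested. Across all genes 21.0% were called higher and 20.1% lower, so 1 of 9 higher and 0 of 9 lower was no more than the background. Without NC replicate 6 the calls were again 1 higher, Cd2, and 0 lower, against 22.6% and 22.6% of all genes. None of the 9 passed the threshold used in the study, which adds an absolute log2 fold change above 1.5 and was met by 7.97% of genes. The study set it on DESeq2 fold changes. On log2(FPKM + 1) the change of a low gene is understated, so genes this low could hardly reach it in any comparison. Failing it therefore says little about the 9 genes. The median difference in log2(FPKM + 1) of the 9 genes was 0.09, against -0.04 over all genes. All 9 genes had overlapping groups. No share of overlapping groups over all genes is given beside this count, so it does not set the 9 genes apart.

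In the comparison of SZ-A with HFD, which asks what the extract changed in obese mice, Cd8a fell and the other 8 genes did not pass the test. Across 14695 genes 9.47% were called higher and 13.3% lower, beside 0 of 9 and 1 of 9 here, so this share too was near the background. None of the 9 passed the study's threshold, against 0.864% of all genes. The median difference in log2(FPKM + 1) was -0.10, against 0.03 over all genes. All 9 genes overlapped between the groups, again without a share over all genes beside that count.

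In the comparison of SZ-A with NC, which asks how far the treated tissue was from that of lean mice, 0 of the 9 genes were called by limma, whereas 4.15% of 14718 genes were called higher and 0.455% lower. At an unadjusted p under 0.05 (limma) there was 1 gene, Cd2, and no share of all genes at that level is given beside it. The weighted fit of the recovered reads also called 0 of 9, beside 610 of 14712 genes. Without NC replicate 6 the count was again 0, against 4.63% and 0.87% of genes. The study's threshold was passed by 1.79% of genes and by none of the 9. With array quality weights or with all 3 groups in the model, Cd2 was called (adjusted p = 0.0184 and 0.0431, limma). The comparisons share mice, so they are not independent of each other.

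**Figure D2:**
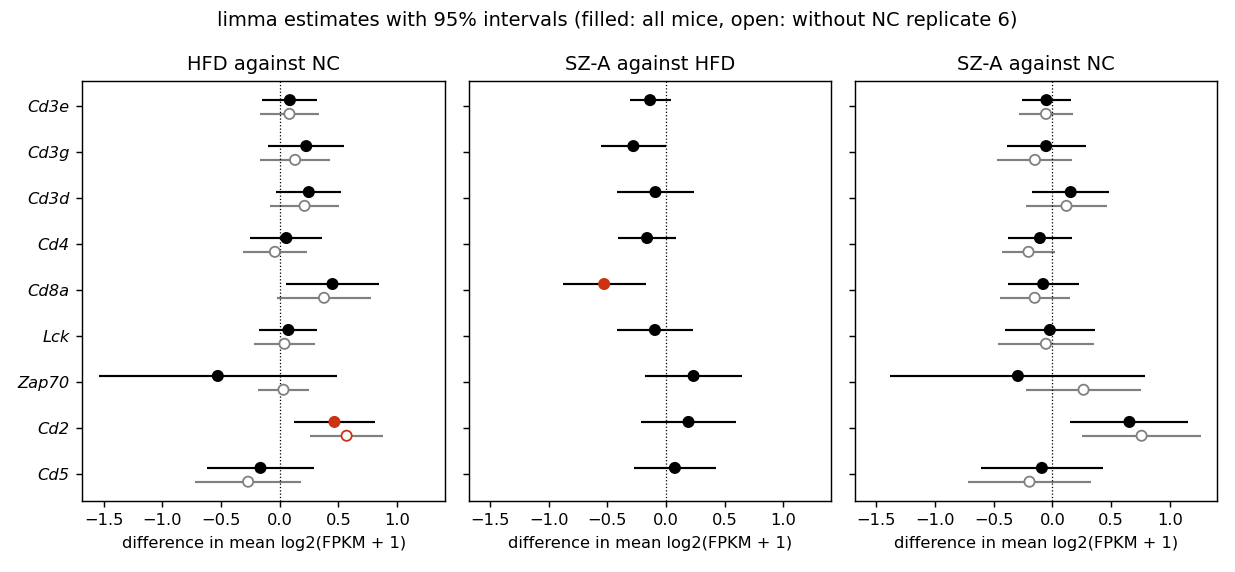
Difference in mean log2(FPKM + 1) (horizontal axis) with its 95% interval for each of the 9 genes in each comparison, from limma. Filled points use all mice and open points leave out NC replicate 6, and red marks an adjusted p under 0.05, reached by Cd2 in HFD against NC (0.47 and, without that mouse, 0.57) and by Cd8a in SZ-A against HFD (-0.53).

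Among the CD3 subunits, Cd3e, the chain that pairs with both Cd3g and Cd3d, was lowest. It ran from 0.152 to 0.760 FPKM (median 0.256) in NC, from 0.221 to 0.795 (median 0.375) in HFD and from 0.139 to 0.361 (median 0.317) in SZ-A. Its highest values were 1 NC mouse, replicate 5, and 1 HFD mouse, replicate 1, and no SZ-A mouse exceeded 0.361. The log2 difference was 0.09 (95% interval -0.15 to 0.32) for HFD against NC, 0.08 without NC replicate 6, and -0.14 (-0.31 to 0.04) for SZ-A against HFD. Cd3g ran from 0.0840 to 1.06 FPKM (median 0.519) in NC, from 0.463 to 1.17 (median 0.734) in HFD and from 0.183 to 1.05 (median 0.452) in SZ-A. Of all 9 genes it came nearest to a call after Cd8a in SZ-A against HFD, at -0.28 (SE 0.13; adjusted p = 0.132, limma, exact two-sided permutation p = 0.0647). It was called there with array quality weights, at -0.35 (adjusted p = 0.0130, limma), and without SZ-A replicate 5, at -0.36 (adjusted p = 0.0285, limma). SZ-A replicate 5 had the highest Cd3g of its group. Cd3d ran from 0.273 to 0.784 FPKM (median 0.543) in NC, from 0.384 to 1.43 (median 0.807) in HFD and from 0.329 to 1.44 (median 0.470) in SZ-A. In that last group 2 mice, replicates 5 and 7, lay above 1.18 FPKM while the next was at 0.812, and the log2 differences were 0.25 (adjusted p = 0.143, limma) for HFD against NC, 0.21 (0.222) without NC replicate 6, and -0.09 (adjusted p = 0.691, limma) for SZ-A against HFD.

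The coreceptor Cd8a, which binds MHC class I and is carried by cytotoxic T cells, was the only one of the 9 genes called in SZ-A against HFD. The cells behind its level were not separated here. It ran from 0.113 to 0.968 FPKM (median 0.416; 6 to 67 reads) in NC, from 0.418 to 1.80 (median 0.772; 27 to 108 reads) in HFD and from 0.156 to 0.868 (median 0.328; 10 to 44 reads) in SZ-A. In HFD 3 mice, replicates 1, 3 and 5, lay at 1.31 to 1.80 FPKM, above every mouse of the other groups, and the other 4 lay within their range. The mean was 0.453 ± 0.297 FPKM for NC (SD, n = 6), 1.02 ± 0.576 for HFD (n = 7) and 0.370 ± 0.252 for SZ-A (n = 7). SZ-A was lower than HFD by -0.53 on the log2(FPKM + 1) scale (SE 0.17, 95% interval -0.88 to -0.17; adjusted p = 0.0332, limma, exact two-sided permutation p = 0.0134). On this scale the change of a low gene is understated: a weighted limma fit of the recovered reads gave a log2 fold change of -1.48 (adjusted p = 0.0235). The call was lost when any of 7 mice was left out, with an adjusted p of 0.0703, 0.0690 and 0.0741 (limma) without HFD replicates 1, 3 and 5, and of 0.0569, 0.0646, 0.0657 and 0.0553 without SZ-A replicates 1, 3, 4 and 6. HFD against NC gave 0.45 (SE 0.18; adjusted p = 0.0656, limma, exact permutation p = 0.0484), and 0.38 (adjusted p = 0.117, limma) without NC replicate 6. That rise passed the threshold with all 3 groups in the model (adjusted p = 0.0414, limma), with the replicate number as a block (adjusted p = 0.0409, limma) and without NC replicate 5, HFD replicate 2 or HFD replicate 4 (0.0315, 0.0376 and 0.0496, limma). SZ-A differed from NC by -0.08 (95% interval -0.38 to 0.22), and by -0.15 (-0.45 to 0.15) without NC replicate 6.

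Cd4, the coreceptor for MHC class II and the mark of helper T cells, was in 5 of 6 NC mice between 0.261 and 0.678 FPKM and at 0.0170 in NC replicate 6. It ran from 0.200 to 1.16 FPKM (median 0.445) in HFD and from 0.0949 to 0.569 (median 0.320) in SZ-A. The highest value, 1.16 FPKM from 72 reads, came from HFD replicate 1, and the next HFD mouse was at 0.522. The log2 difference was 0.06 (95% interval -0.25 to 0.36) for HFD against NC, turned to -0.04 without NC replicate 6 and -0.03 without HFD replicate 1, and was -0.16 (-0.41 to 0.09) for SZ-A against HFD. Divided by the summed CD3 level of the same mouse, Cd4 had group medians of 0.305 (NC), 0.238 (HFD) and 0.224 (SZ-A), while Cd8a had 0.265, 0.400 and 0.217. The ranges of both ratios overlapped between all groups.

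Neither kinase passed the test in any comparison. Lck, which starts the signal, ran from 0.701 to 1.52 FPKM (median 0.995) in NC, from 0.896 to 1.62 (median 1.13) in HFD and from 0.429 to 2.33 (median 1.002) in SZ-A. Its group means, 1.09, 1.19 and 1.11 FPKM, were the closest of the 9 genes, and the intervals of the log2 difference were -0.17 to 0.32 for HFD against NC, -0.42 to 0.23 for SZ-A against HFD and -0.40 to 0.36 for SZ-A against NC. Without NC replicate 6 they were -0.22 to 0.30 and -0.46 to 0.35 for the comparisons with NC. The SZ-A mice spread most, from replicate 6 at the bottom to replicate 5 at the top. Zap70, which docks on the receptor after Lck has acted, ran from 0.251 to 0.836 FPKM (median 0.518) in HFD and from 0.399 to 2.99 (median 0.566) in SZ-A. In NC 5 mice lay between 0.249 and 0.750 FPKM and the remaining mouse at 14.5. HFD against NC was therefore -0.53 with that mouse (adjusted p = 0.392, limma) and 0.03 without it (95% interval -0.19 to 0.25; adjusted p = 0.827, limma). SZ-A against HFD was 0.23 (-0.18 to 0.65), with SZ-A replicate 2 at 2.99 FPKM from 165 reads and the next mouse of that group at 1.13. In NC replicate 6 Zap70 stood at 633 reads beside 31 reads for the 3 CD3 genes together.

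Cd2, which binds CD48 on partner cells, was the most abundant of the 9 and the only one of them called in HFD against NC. It ran from 0.356 to 1.93 FPKM (median 1.13; 10 to 49 reads) in NC, from 1.45 to 2.48 (median 1.68; 47 to 77 reads) in HFD and from 0.967 to 4.62 (median 1.998; 31 to 112 reads) in SZ-A. Without NC replicate 6, which held the top NC value, every HFD mouse lay above every NC mouse, whose highest was 1.32. The means were 1.11 ± 0.538, 1.85 ± 0.410 and 2.39 ± 1.21 FPKM (SD, n = 6, 7 and 7). HFD was higher than NC by 0.47 on the log2 scale (SE 0.16, 95% interval 0.12 to 0.81; adjusted p = 0.0315, limma, exact two-sided permutation p = 0.0122), and by 0.57 without NC replicate 6 (adjusted p = 0.00585, limma). The call was lost without NC replicates 1, 2 and 5 (adjusted p = 0.0629, 0.0559 and 0.0625, limma) and without HFD replicates 1 and 6 (0.0612 and 0.0622, limma). It was also lost with quantile normalization (0.0525), with all 3 groups in the model (0.0725) and with the replicate block (0.0669), all by limma. For SZ-A against HFD the difference was 0.19 (95% interval -0.21 to 0.59; adjusted p = 0.480, limma). SZ-A exceeded NC by 0.66 (SE 0.23; adjusted p = 0.136, limma, exact permutation p = 0.0221), and by 0.76 without NC replicate 6 (adjusted p = 0.0837, limma).

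Cd5, the inhibitory receptor, ran from 0.133 to 2.28 FPKM (median 0.526) in NC, from 0.207 to 0.963 (median 0.386) in HFD and from 0.185 to 1.27 (median 0.396) in SZ-A. The highest value, NC replicate 1, rested on 76 reads, and Cd3e and Cd3d had their lowest values among NC mice there. The log2 difference of HFD against NC was -0.16 (95% interval -0.62 to 0.29), was -0.27 without NC replicate 6 and turned to 0.04 without NC replicate 1. For SZ-A against HFD it was 0.07 (-0.27 to 0.42). The deposited values of Cd5 imply an exon length of 2069 bases, shorter than the 4928 bases of the annotation used here, and reads were counted with the former.

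The spread between mice, which holds both differences between animals and counting error, was set beside the spread that counting alone would give, as a description. The coefficient of variation (CV) was above the counting value in all 27 combinations of gene and group. The closest in proportion were Cd3e in SZ-A, with a CV of 31.2% against 22.4% expected, Cd3d in NC, with 39.6% against 24.4%, and Lck in HFD, with 20.8% against 12.7%. At the other end Zap70 had 200.1% against 8.81% in NC and 97.9% against 14.1% in SZ-A, followed by Cd5 in NC, with 106% against 19.4%. Zap70 in NC went from a CV of 200.1% to 35.0% when replicate 6 was left out, and Cd4 from 56.9% to 29.9%.

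**Figure D3:**
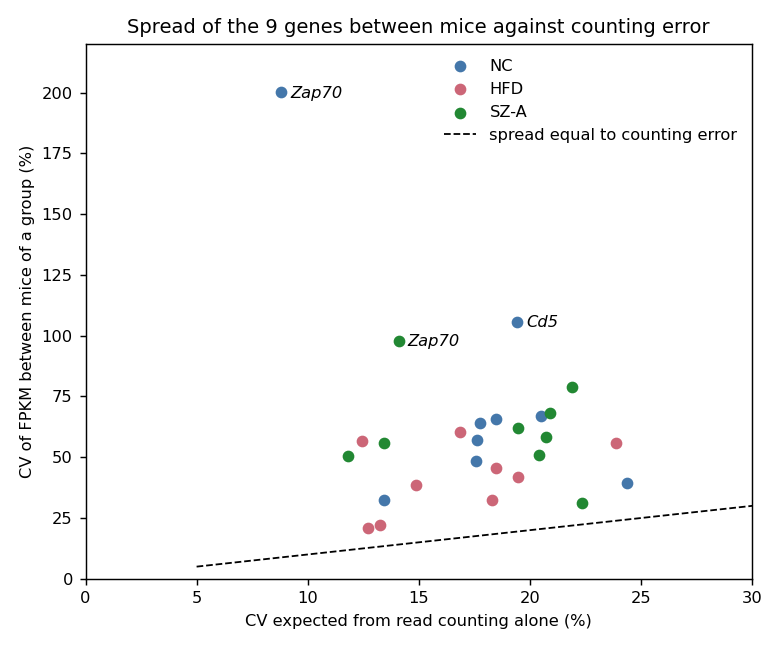
CV of FPKM between the mice of a group (vertical axis, %) against the CV that counting of the recovered reads alone would give (horizontal axis, %), 1 point per gene and group in the color of the group. All points lie above the dashed line of equality, and the labelled points are Zap70 in NC and SZ-A and Cd5 in NC.

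The group medians of the CD3 genes lay closer together than those of Ptprc, which encodes CD45, the surface phosphatase of all leukocytes and an activator of Lck. The summed FPKM of Cd3e, Cd3g and Cd3d was 0.727 to 2.25 (median 1.37) for NC, 1.29 to 3.40 (median 1.95) for HFD and 0.818 to 2.56 (median 1.28) for SZ-A. Ptprc was 0.109 to 2.95 (median 1.31), 10.8 to 22.4 (median 13.3) and 3.53 to 10.1 (median 4.59). All HFD mice exceeded all other mice in Ptprc, whereas the CD3 sums overlapped throughout. Ptprc rose by 2.85 on the log2 scale in HFD against NC (adjusted p = 4.47e-06, limma), by 2.66 without NC replicate 6, and fell by 1.28 in SZ-A against HFD (adjusted p = 0.00205, limma). The ratio of the CD3 sum to Ptprc had group medians of 1.24 (NC), 0.131 (HFD) and 0.253 (SZ-A). It was 0.591 to 6.69 in NC (0.591 to 2.16 without replicate 6), above every HFD mouse (0.0915 to 0.187) and every SZ-A mouse (0.107 to 0.557), and 5 of 7 SZ-A mice lay above the highest HFD mouse.

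**Figure D4:**
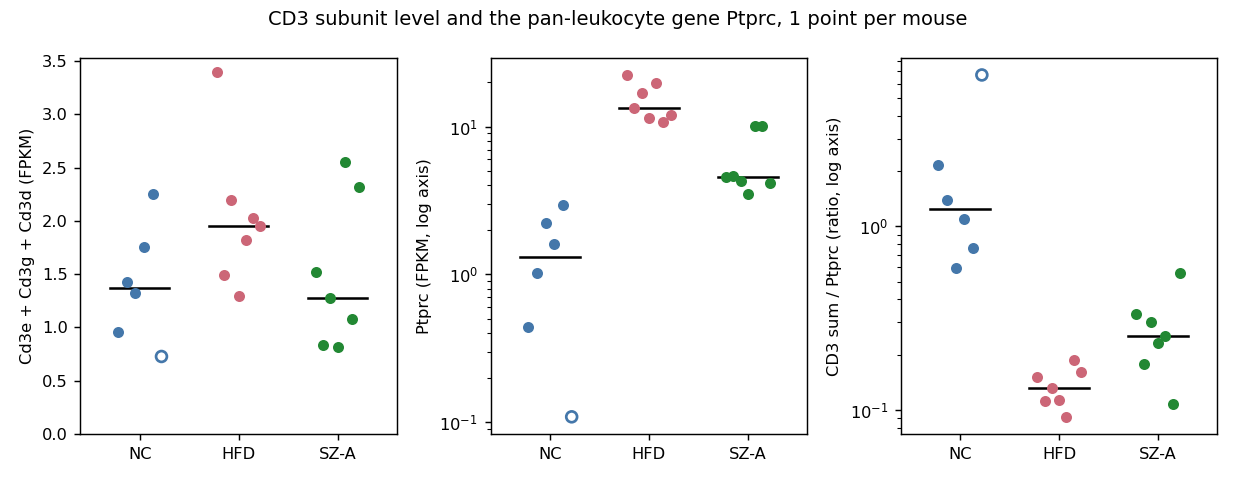
Summed FPKM of Cd3e, Cd3g and Cd3d (left), FPKM of Ptprc (middle, logarithmic axis) and their ratio (right, logarithmic axis) in each mouse of the 3 groups, with the group median as a line and NC replicate 6 as an open circle. The CD3 sums overlap (medians 1.37, 1.95 and 1.28), Ptprc is highest in HFD (medians 1.31, 13.3 and 4.59), and the ratio is highest in NC (medians 1.24, 0.131 and 0.253).

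Of the other receptor chains and coreceptors, 8 of 14 listed genes were in the table, and 3 rose in HFD against NC, 1 fell in SZ-A against HFD and 0 were called in SZ-A against NC, the same counts without NC replicate 6. The share of 3 of 8 stands beside 21.0% of all genes higher in HFD against NC, and 1 of 8 beside 13.3% lower in SZ-A against HFD, which is near that background. Their median differences in log2(FPKM + 1) were 0.47, -0.17 and 0.19. Cd28, the main costimulatory receptor of T cells, rose from 0.297 ± 0.180 FPKM in NC to 0.751 ± 0.177 in HFD (0.44, adjusted p = 0.00319, limma; 0.37 and 0.00399 without NC replicate 6) and stood at 0.258 ± 0.0479 in SZ-A, lower than HFD by -0.47 (adjusted p = 0.000722, limma). The SZ-A mice, at 0.188 to 0.325 FPKM, lay entirely below the HFD mice, at 0.558 to 0.986. Trbc2, Cd6 and Trac were named after their values were seen. Trbc2, a constant segment of the receptor beta chain, rose by 0.74 in HFD against NC (adjusted p = 0.0184, limma; 0.56 and 0.0243 without NC replicate 6). Cd6, a relative of Cd5, rose by 0.35 (adjusted p = 0.00714, limma; 0.34 and 0.0116 without that mouse). For Trac, the alpha chain constant gene, the difference was 0.58 (adjusted p = 0.0877, limma), and 0.43 (0.166) without that mouse. Trdc, of the gamma delta receptor, and Icos, a costimulatory receptor, differed by 0.25 and -0.15 in SZ-A against HFD (adjusted p = 0.0624 and 0.0828, limma). Cd8b1, the partner chain of Cd8a, had 0.56 (adjusted p = 0.0826, limma; 0.55 and 0.102 without NC replicate 6) in HFD against NC and -0.55 (adjusted p = 0.108) in SZ-A against HFD, the same signs as Cd8a without passing the test. Cd247, the CD3 zeta chain, was not analysed here.

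The proximal signalling list, kinases, phosphatases and adaptors that act next to the receptor, had 13 of 24 genes higher and 2 lower in HFD against NC, 1 higher and 12 lower in SZ-A against HFD, and 8 of 23 higher in SZ-A against NC (8 of 24 without NC replicate 6). Of all genes, 21.0% were higher in HFD against NC, 13.3% lower in SZ-A against HFD and 4.15% higher in SZ-A against NC, and the same shares apply to the lists that follow. Besides Ptprc, the adaptors Fyb and Lcp2 and the phosphatase Ubash3b fell most clearly in SZ-A against HFD, by 1.66, 1.08 and 1.21 on the log2 scale (adjusted p = 0.000364, 0.00189 and 0.00210, limma). Plcg1, the phospholipase downstream of Zap70, went the other way, with 0.62 in SZ-A against HFD (adjusted p = 0.0151, limma). Many of these genes are also expressed by myeloid cells, and in the same comparisons 13 of 14 macrophage markers rose (12 without NC replicate 6) and 12 of 14 fell. Of 33 downstream genes, 18 rose in HFD against NC, 13 fell in SZ-A against HFD and 5 rose in SZ-A against NC. Among them the transcription factor Nfatc2 fell by 0.84 in SZ-A against HFD, and Nfkb1 by 0.58 (adjusted p = 0.000348 and 0.000722, limma). In HFD, Fyb stood at 16.0, Lcp2 at 9.32 and Nfatc2 at 3.89 FPKM, above the HFD mean of each of the 9 receptor genes. Without NC replicate 6, HFD against NC gave 14 proximal genes higher and 2 lower, and 17 downstream genes higher and 2 lower, and SZ-A against NC again gave 5 downstream genes higher.

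Genes for T cell lineage and subsets gave a mixed picture: of 21, 8 rose and 3 fell in HFD against NC (8 and 4 without NC replicate 6), 1 rose and 5 fell in SZ-A against HFD, and of 20, 3 rose and 1 fell in SZ-A against NC, with or without NC replicate 6. The 3 that fell in HFD against NC were a smaller share than the 20.1% of all genes called lower there. Ikzf1, a lymphoid transcription factor, fell by 0.96 in SZ-A against HFD (adjusted p = 0.000487, limma) and Cd44, an adhesion receptor, by 1.47 (adjusted p = 0.0116, limma), both of which are also found in other leukocytes. Of 8 cytotoxic and checkpoint genes, 6 rose in HFD against NC (4 without NC replicate 6), and in SZ-A against HFD Havcr2 and Nkg7 fell by 1.38 and 0.69 while Lag3 rose by 0.63 (adjusted p = 0.00608, 0.0495 and 0.0195, limma). Of 12 genes for ligands on antigen-presenting cells, 8 rose in HFD against NC, with or without NC replicate 6, and 5 fell in SZ-A against HFD. They include Cd48, the ligand of Cd2, at 59.8 ± 23.9 FPKM in HFD and 22.8 ± 10.9 in SZ-A, a change of -1.38 (adjusted p = 0.00340, limma), and Cd80, a ligand of Cd28, with -0.79 (adjusted p = 0.00408, limma).

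Markers of the other cells that could carry these genes were counted in the same way, beside 21.0% of all genes higher and 20.1% lower in HFD against NC and 9.47% and 13.3% in SZ-A against HFD. Of 12 dendritic cell genes 6 rose and 1 fell in HFD against NC (6 and 4 without NC replicate 6), and 1 rose and 3 fell in SZ-A against HFD. Of 8 genes of natural killer and innate lymphoid cells 3 rose in HFD against NC and 2 fell in SZ-A against HFD. Without NC replicate 6 the rises were Tyrobp (4.06), Il1rl1 (1.67) and Il2rb (0.38), the last also in the T cell subset list. Genes of this and the other lists can be shared between cell types, and 12 of 14 macrophage markers rose in that comparison as well. Klrb1c, Klrd1, Klrk1, Eomes and Rora were not called there (adjusted p = 0.186 to 0.939, limma). Of 5 B cell genes 1 rose in HFD against NC, near the share of all genes (2 without NC replicate 6), and 2 fell in SZ-A against HFD. The summed B cell level, mostly Ighm, was 1.39 to 292 FPKM in the NC mice, 162 to 647 in the HFD mice and 51.6 to 209 in the SZ-A mice. Cxcl13, the only listed gene of lymph node stroma in the table, ran from 0.418 to 39.7 FPKM and was called in no comparison (adjusted p = 0.687 to 0.899, limma). The part of these cells in the values of the 9 genes was not tested.

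Within groups, the 9 genes moved together only loosely from mouse to mouse. After the group means of log2(FPKM + 1) had been subtracted, Pearson r over 20 mice ran from -0.43 to 0.84 across the 36 gene pairs, with a median of 0.34 and 10 pairs above 0.5. Without NC replicate 6 the range was -0.19 to 0.83 and the median 0.33. The genes of a mouse share its library, whereas counting error at low depth is separate for each gene and lowers r. No test was made of these values. The closest pair was Cd3g and Cd8a (r = 0.84, Spearman rho = 0.84), whose upstream sequences are given with the gene positions, whereas the neighbours Cd3g and Cd3d had 0.42. Cd3d was closest to Cd4 (0.64). Cd2 had its highest value with Cd3d (0.48) and was at 0.02 with Cd8a. Zap70 was below 0 with 6 of the other 8 genes, but with 3 of 8 without NC replicate 6, where its values ran from -0.17 (Cd2) to 0.21 (Cd3e).

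**Figure D5:**
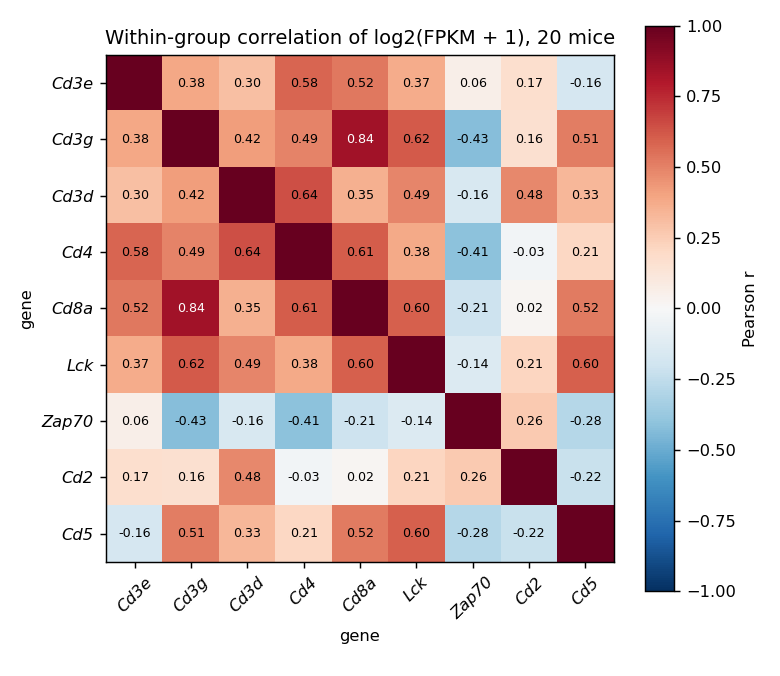
Pearson r of log2(FPKM + 1) after subtraction of the group mean, for each pair of the 9 genes over 20 mice, with the color scale running from -1 (blue) to 1 (red). Cd3g and Cd8a give the highest value, 0.84, and the row of Zap70 is mostly blue with NC replicate 6 included, whereas without that mouse its values run from -0.17 to 0.21.

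Among all genes averaging 0.1 FPKM or more, the 10 whose within-group level was most like the mean of the 3 CD3 genes were Cst7 (r = 0.84), Itgal (0.83), Trbc1 (0.83), Trbc2 (0.83), Lax1 (0.82), Tnfrsf13b (0.82), Tmem161b (0.78), Gimap3 (0.77), Pilra (0.77) and Trim59 (0.77), over 20 mice. Both beta chain constant genes of the receptor are in this list, and without NC replicate 6 the first 3 were Cst7, Trbc1 and Itgal, each at 0.82. For Cd4 the 5 most alike were Serpina3g (0.89), Wfdc17 (0.85), Jchain (0.85), Ms4a4b (0.84) and Igkc (0.82). Jchain and Igkc are antibody genes of plasma cells, and both Cd4 and Jchain were at their lowest, 1 read, in NC replicate 6. Over the 19 other mice Jchain and Cd4 had r = 0.78. For Cd8a, examined after its values were seen, Cd8b1 was among the 5 most alike (0.83; 0.86 over 19 mice without NC replicate 6). For Zap70, also examined afterwards, Mrpl37 (0.98), Cttnbp2, Etv4, Runx2 and Fut2 were the most alike, at 0.98 each. Over the 19 mice other than NC replicate 6 they ran from 0.88 (Runx2) to 0.92 (Mrpl37). Spearman rho of the same genes was lower there, from 0.61 (Cttnbp2) to 0.75 (Mrpl37). Those 19 mice still include SZ-A replicate 2, at 2.99 FPKM of Zap70, and whether that mouse carried the Pearson values was not tested.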

How the data were processed

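Total RNA of eWAT from 20 mice was converted into unstranded poly(A) libraries and sequenced. Per the study's methods, the authors used HISAT2 for alignment to GRCm38, and the submitters' processing notes name featureCounts 1.5.0-p3. How FPKM was computed is not given in the sources used here. The deposited table holds FPKM of 14776 genes, all above 0 in every mouse, and the authors' own count test was not repeated on it. Groups were taken from the labels (NC 6, HFD 7, SZ-A 7), which do not say that mice of the same number belong together. Same-numbered mice did not deviate together consistently: the pairwise r ran from -0.41 to 0.58, with both signs in each comparison. The mice are separate animals.

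Gene names and positions came from a GRCm38 annotation (14770 genes matched). Reads were recovered from FPKM and exon length: 95.93% to 96.29% of values under 1000 reads were whole within 0.01, and 342 genes needed another length. Recovered reads on the table's genes were 13567667 to 19388628 per mouse. The library sizes implied by FPKM were 13938405 to 19591891. They were not the same quantity: HFD replicate 1 had 17216011 reads and an implied size of 15406890. The source of this difference was not tested. Genes averaging 0.1 FPKM or more were tested with limma 3.58.1 (R 4.3.3, trend) on log2(FPKM + 1), using the mice of the comparison only, with Benjamini-Hochberg adjustment over all genes. A call is an adjusted p under 0.05. Exact two-sided permutation tests over mice (1716 or 3432 regroupings) were added for single genes. Alternatives were the pseudocount, the filter, the scaling, all 3 groups in the model, voom on recovered reads, array quality weights, the replicate block and leaving out each mouse. The model code was tested on simulated data. Fits of the recovered reads and of a pseudocount of 0.1 without NC replicate 6 were chosen after the data were seen. Members and lists were chosen with earlier results of these data known. Besides the 9 genes, up to 4 genes per list were named by the smallest adjusted p in SZ-A against HFD, as well as the genes most alike in pattern. Trbc2, Cd6, Trac and Plcg1 fall outside that rule. Some genes that the rule would name are not reported here. Upstream sequences are from RefSeq, and 3 of the 9 genes are shown.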

Additional observations from a re-analysis of the deposited data

Results flagged for a closer look

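Of the 27 combinations of gene and group, 3 had a mouse far from the others of its group by Dixon's criterion, which chance meets in about 1 in 20 groups. The criterion was applied to log2(FPKM + 1), and the gaps below are on that scale, not in FPKM. Cd4 was at 1.16 FPKM (72 reads) in HFD replicate 1, with a gap to the next mouse of 0.595 of the group's range on the log2 scale. Zap70 was at 14.5 FPKM (633 reads) in NC replicate 6, with a gap of 0.866, the mouse with low adipocyte genes. Zap70 was also at 2.99 FPKM (165 reads) in SZ-A replicate 2, with a gap of 0.601.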

How the results depend on the processing

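Limits: the values rest on a median of 30 reads, groups overlapped for every gene, and each call was lost when certain single mice were left out. In HFD against NC, 1 gene was called; 0 were called at the study's threshold and with quantile normalization, and 0 to 2 when a mouse was left out. The fit with all 3 groups called Cd8a in place of Cd2. In SZ-A against HFD, 1 was called, Cd8a, and 0 at the study's threshold. A filter at a mean of at least 1 FPKM also gave 0, but it left only Lck and Cd2, so Cd8a was not tested there. With array quality weights 2 were called (Cd3g and Cd8a), and 0 to 2 when a mouse was left out. In SZ-A against NC, 0 were called; 1 was called (Cd2) with all 3 groups and with array quality weights, and 0 whichever mouse was left out. Same-numbered mice share only a number. With the replicate block the count was 1 (Cd8a at 0.47 in place of Cd2 at 0.48) in HFD against NC, 1 (Cd8a) in SZ-A against HFD and 0 in SZ-A against NC, and over all genes 4424, 2619 and 167 were called in place of 6047, 3349 and 678. Over all genes, all 3 groups gave 2088 and 1527 calls and array quality weights 6403 and 2639, for SZ-A against HFD and against NC. Some uncalled log2 differences turned sign. In HFD against NC, Cd4 was -0.12 with array quality weights, -0.22 with voom and -0.14 with a pseudocount of 0.1, both without NC replicate 6, and -0.0418 to 0.11 when a mouse was left out. There Cd5 was -0.27 to 0.0363 and Zap70 -0.70 to 0.031 when a mouse was left out, and Zap70 was 0.0862 with voom and 0.0796 with a pseudocount of 0.1, both without NC replicate 6. In SZ-A against HFD, Cd5 was -0.0099 with quantile normalization, -0.16 with array quality weights and -0.0193 to 0.15 when a mouse was left out. In SZ-A against NC, array quality weights gave 0.0125 for Cd3e and -0.0477 for Cd3d. When a mouse was left out the range was -0.0905 to 0.0318 for Cd3e, -0.15 to 0.0361 for Cd3g, -0.16 to 0.0129 for Cd8a, -0.14 to 0.063 for Lck, -0.20 to 0.11 for Cd5 and -0.48 to 0.26 for Zap70. Zap70 was 0.54 with voom and 0.50 with a pseudocount of 0.1, both without NC replicate 6. The causes were not tested. Of all single-gene results under the alternatives, 621 kept direction and side of the threshold, 15 lost a call, 11 gained one and 27 turned sign. The exact permutation test, whose p is unadjusted, was counted among these alternatives. The 11 include it for Cd8a in HFD against NC (exact permutation p = 0.0484) and for Cd2 in SZ-A against NC (exact permutation p = 0.0221).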
